A study of Physcomitrium patens with 24 samples.

Results

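Protein interaction profile sequencing (PIP-seq) finds parts of RNAs that a nuclease cannot reach because a protein sits on them. The sites described here are the protein-protected sites of Physcomitrium patens, a moss, in protonema, its thread-like young tissue, after 60 min of abscisic acid (ABA), compared by the RNase that found them. All sites of the deposited 60-min list were members, 47102 of 147131 sites over the lists of 0, 30 and 60 min. Liquid cultures received ABA, at 10 µM by the design text and at 10 mM by the treatment protocol, and control cultures received methanol. The labels give no strain and no 60-min group without ABA, so what follows describes treated tissue at 60 min, not an effect of ABA.

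The 8 libraries of 60 min fall into 4 groups of 2 replicates, formed by RNase and protein state. All of them were crosslinked with formaldehyde. Protein-bound libraries were digested with the RNase while proteins were still on the RNA, and structure-only libraries after proteins had been removed with SDS and proteinase K. The library descriptions name protein kinase or proteinase K, so which label stands for which protein state was not settled. The names in the list show 4 call sets at 60 min (12 over the times), replicates 1 and 2 of each RNase. Each was taken to stand for one library of each protein state, and overlapping calls had been merged into one site. The labels do not say that replicates came from separate cultures, so p-values cover only how far these samples vary, possibly for technical reasons alone. Both RNases of a replicate number were used on divisions of one sample.

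The RNases are complementary reagents. RNaseONE (here ssRNase) cuts unpaired RNA and leaves paired or protein-covered stretches, whereas RNase V1 (here dsRNase) cuts paired or stacked RNA and leaves unpaired or protein-covered stretches. Comparison with the protein-free library is meant to remove what RNA structure alone protects, so a dsRNase site is a covered stretch open to the paired-RNA enzyme once protein is gone, and an ssRNase site one open to the single-strand enzyme. Reads per site are not in the list. The depth of sequencing is therefore unknown, and a call number cannot be told apart from RNA level. In bulk tissue, fewer cells of a type and less RNA per cell cannot be told apart either. No genome of the build used for the coordinates was at hand, so genes and sequences were not analysed, and regions stand in their place.

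The first question was how many sites each enzyme gave. At 60 min dsRNase replicate 1 had calls in 37021 sites and replicate 2 in 32724, and ssRNase replicates 1 and 2 had calls in 6253 and 6388. Both dsRNase sets lay far above both ssRNase sets, with means of 34872.5 ± 3038 and 6320.5 ± 95.5 sites (SD, n = 2 each), a ratio of 5.52. Within replicate numbers the ratios were 5.92 and 5.12. The exact two-sided permutation test gave p = 0.333, the smallest that 2 against 2 sets allow. At 0 min the within-replicate ratios were 4.29 and 5.70, and at 30 min 4.61 and 1.96. The ratio at 60 min was not distinguishable from that at 0 min (exact p = 0.667) and lay above both values at 30 min at the smallest possible exact p of 0.333.

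Most sites were found with dsRNase alone. These were 38052 sites, 80.8% of the list (95% Wilson interval 80.4 to 81.1%; all intervals here cover counting error only). A further 7328 sites, 15.6% (15.2 to 15.9%), had calls of both RNases, and 1722, 3.66% (3.49 to 3.83%), had ssRNase calls alone. The commonest combination was dsRNase replicates 1 and 2 without ssRNase, with 18392 sites. All 4 sets had a call in 2689 sites, and both ssRNase sets without dsRNase in 493. When an RNase counted only if both its replicates had a call, 25267 sites remained, and dsRNase-alone, shared and ssRNase-alone sites made up 85.8, 10.6 and 3.57%. The ssRNase-alone share depended on single sets. It was 6.75 and 6.16% without dsRNase replicate 1 or 2, and 2.08 and 2.68% without ssRNase replicate 1 or 2.

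Sites that one enzyme found repeatedly were also more often found by the other. Of dsRNase sites called in 1 replicate, 6.45% had an ssRNase call, against 24.5% of those called in both. For ssRNase sites the corresponding shares with a dsRNase call were 77.5 and 86.3%. Agreement between sets, the share called in both among sites called in either, was 53.7% for the dsRNase replicates and 39.7% for the ssRNase replicates. Between RNases it was 11.6 and 14.9% for sets of the same replicate number, and 12.9 and 13.2% for sets of different numbers. The means were 13.2% for sets that share a divided sample and 13.1% for sets that do not. The unequal sizes of the sets cap agreement between RNases at 16.9 to 19.5%. They alone therefore put it below that of the replicates, and no p-value is given for the ranking.

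Sites with calls of both RNases were the wide ones. Their median width was 77 nt (quartiles 50 to 125 nt), against 36 nt (28 to 51 nt) for dsRNase-alone and 26 nt (19 to 34 nt) for ssRNase-alone sites. Shared sites covered 797.289 kb, 31.7% of all protected length, although they were 15.6% of the sites. A merged site spans all its calls, so width and number of calls move together. No ssRNase-alone site reached 100 nt, the widest being 99 nt at 10172052 to 10172150 on the plus strand of chromosome 19. The widest sites with calls of all 4 sets measured 1372 nt (chromosome 26, 1819 to 3190, minus strand, 37 merged calls) and 1325 nt (chromosome 20, 228275 to 229599, minus strand, 31 merged calls). The widest dsRNase-alone sites, at 26798183 to 26798689 and 26820659 to 26821165 on the minus strand of chromosome 1, were both 507 nt long with the same score of 223.44. They may be near-identical copies that shared reads.

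Sites made of a single call leave merging aside, but they are a minority of each set. They were 12008 and 7652 of the sites of dsRNase replicates 1 and 2, and 756 and 473 of those of ssRNase replicates 1 and 2. Their median width was 32 nt in dsRNase replicate 1 and 27 nt in replicate 2, and 27 and 22 nt in ssRNase replicates 1 and 2. Single-call sites of dsRNase were 5 nt wider within each replicate number, but the groups touch at 27 nt. The exact two-sided permutation test gave p = 0.667. Replicate 1 was thus wider than replicate 2 by as much as dsRNase was wider than ssRNase. Over all called sites, merged ones included, the order was the reverse. Median widths were then 43 and 44 nt for dsRNase replicates 1 and 2, and 62 and 74 nt for ssRNase replicates 1 and 2. Among dsRNase sites, the share with an ssRNase call was 2.47% at 21 to 30 nt, 15.3% at 41 to 60 nt, 40.1% at 81 to 120 nt and 85.6% above 200 nt. The narrowest sites, of 1 to 20 nt, departed slightly from this order, at 4.03%.

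**Figure D1:**
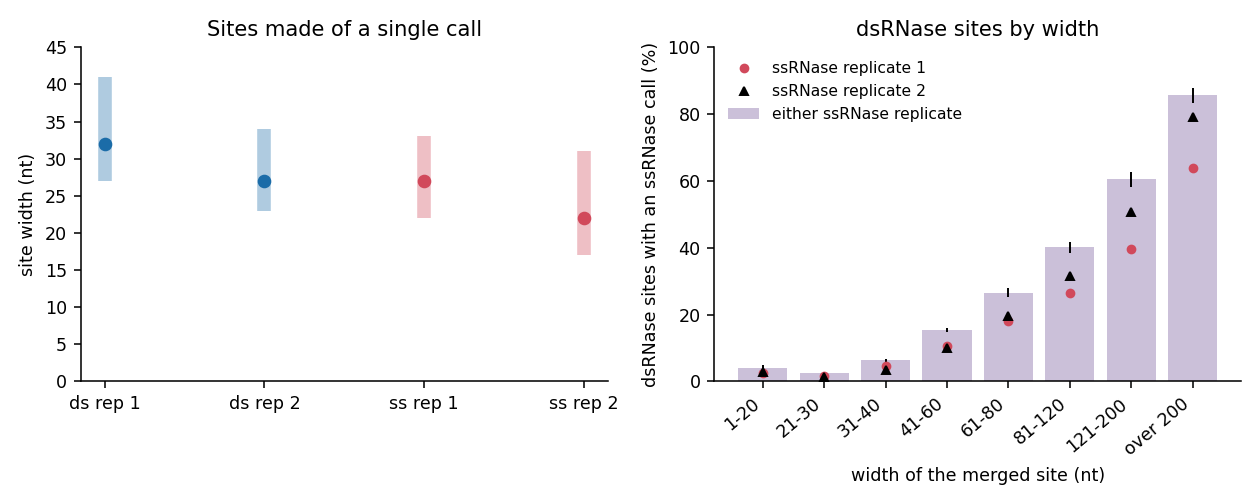
Left: width in nt of 60-min sites made of a single call, per call set; points are medians and bars run from the lower to the upper quartile. Right: share in % of dsRNase sites with an ssRNase call by width of the merged site; bars give either ssRNase replicate with 95% Wilson intervals, symbols each replicate. The share rises from 2.47% at 21 to 30 nt to 85.6% above 200 nt.

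Whether a site was found by a given enzyme recurred at the other times, in call sets that had no part in sorting the 60-min sites. Of the 1722 ssRNase-alone sites, the ssRNase sets of 0 min overlapped 44.2 and 53.1% and those of 30 min 55.2 and 64.7% (at least 1 nt, same strand). The dsRNase sets overlapped 29.5 and 26.0% at 0 min and 27.8 and 31.9% at 30 min, although each held more sites. All ssRNase values lay above all dsRNase values, with means of 54.3 ± 8.41% and 28.8 ± 2.53% (SD, n = 4 each; exact two-sided permutation p = 0.0286, the smallest that 4 against 4 allow). The RNases of a time and replicate number share a divided sample, and exchanging them within these 4 samples gave an exact p of 0.125, the smallest that 4 pairs allow. For the 493 ssRNase-alone sites called in both replicates the means were 79.2 ± 7.60% and 26.0 ± 4.17%, again without overlap (exact p = 0.0286, and 0.125 within divided samples).

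Sites of dsRNase alone showed the opposite order. Here the dsRNase sets overlapped 54.0 ± 6.36% and the ssRNase sets 10.8 ± 5.43% (SD, n = 4 each). The ssRNase sets held only 6897 to 13873 sites, far fewer than the 38052 sites. This order therefore follows from size, and no p-value is given for it. Read from the other side, 50.7 to 63.1% of the sites of each dsRNase set overlapped a dsRNase-alone site of 60 min, against 29.2 to 43.5% of each ssRNase set. Shared sites were overlapped by the dsRNase sets at 80.7 ± 8.67% and by the ssRNase sets at 60.3 ± 16.0%. The ssRNase values were 47.3 and 48.8% at 0 min and 63.4 and 81.6% at 30 min. In this order the sets held 6897, 8370, 8413 and 13873 sites. The part of set size in these values was not tested. At 0 or 30 min, 83.0% of ssRNase-alone sites had an ssRNase call and 52.1% a dsRNase call. An ssRNase call and no dsRNase call at both other times together was found for 650 sites, 37.7%. Sites with no overlap at either time were 10.2% of ssRNase-alone, 17.1% of dsRNase-alone and 1.24% of shared sites. Overlap with a site on the opposite strand was rare, at 8 ssRNase-alone, 11 dsRNase-alone and 6 shared sites.

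**Figure D2:**
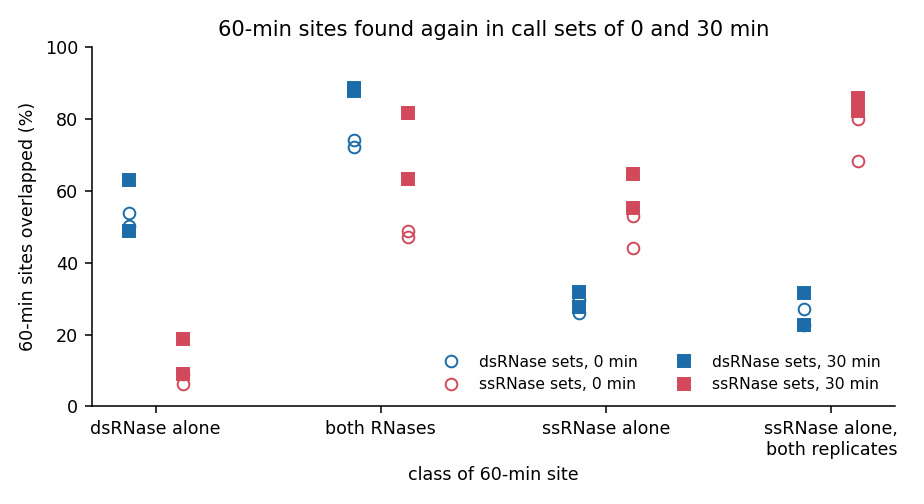
Share in % of 60-min sites of each class overlapped by the sites of each call set of 0 min (open circles) and 30 min (filled squares), dsRNase in blue and ssRNase in red. For ssRNase-alone sites all 4 ssRNase sets lie above all 4 dsRNase sets, and for dsRNase-alone sites the order is the reverse, an order that follows from the sizes of the sets.

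Joining same-strand sites with gaps under 500 nt gave 14221 regions. Of these, 10371 (72.9%) held dsRNase calls alone, 3404 (23.9%) held calls of both RNases and 446 (3.14%) ssRNase calls alone. Regions with both RNases were the crowded ones and held 52.6% of all sites. An ssRNase call was present in 13.2% of regions of a single site, 23.0% of those of 2 to 4 sites, 55.8% at 5 to 9, 83.7% at 10 to 19 and 96.5% at 20 or more. More sites give more chances of a call, and the share of single sites with an ssRNase call rose less, from 13.2% in single-site regions to 27.5% in regions of 20 or more sites. Single sites made up 5953 of 10371 dsRNase-alone regions (57.4%). Regions of ssRNase alone, drawn from far fewer sites, were nearly all single sites, 409 of 446. The 3 with the most ssRNase sites had 3 each, on chromosome 3 (10686086 to 10686512, minus strand), chromosome 6 (9538484 to 9538885, plus strand) and chromosome 15 (15396144 to 15396724, minus strand). The last had calls in ssRNase replicate 1 alone.

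Most ssRNase-alone sites lay near dsRNase sites. A dsRNase call was present in the same region for 71.7% of ssRNase-alone sites (69.5 to 73.8%), whereas an ssRNase call was present for 42.6% of dsRNase-alone sites (42.1 to 43.1%). Per replicate these shares were 74.8 and 69.5% against 42.8 and 48.3%, without overlap, and the exact two-sided permutation p was 0.333, the smallest possible. The larger number of dsRNase sites makes a dsRNase neighbour likelier. The nearest other site on the strand lay at a median of 60 nt from ssRNase-alone and 62 nt from dsRNase-alone sites, with an exact permutation p of 1 over call sets. Shared sites had a neighbour at a median of 22 nt. Sites at least 500 nt from any other were 23.5% of ssRNase-alone, 15.6% of dsRNase-alone and 6.66% of shared sites.

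The region test asked where the enzymes differed beyond their total numbers. Each region's called sites were scaled per call set and strand, and limma was run on the 1334 regions whose mean over the sets reached 4 calls (Benjamini-Hochberg at 0.05). Relatively more dsRNase calls were found in 126 regions (9.45% of those tested) and relatively more ssRNase calls in 150 (11.2%). With the replicate number as a block the counts were 128 and 234. Without scaling, so that the larger dsRNase sets count in full, they were 890 and 3, so all directions here are relative to each set's total. Single sets moved the counts: they were 26 and 108 without dsRNase replicate 1, 39 and 136 without dsRNase replicate 2, 452 and 21 without ssRNase replicate 1, and 459 and 24 without ssRNase replicate 2.

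Regions with relatively more dsRNase calls were mostly regions with no ssRNase call, 120 of 126. The minimum mean of 4 calls shaped this, since a region without ssRNase calls entered only through many dsRNase calls. Of 121 such regions tested, 120 passed. Passing was thus nearly fixed by entry, and no p-value of this test is given for them. No region of ssRNase calls alone had enough calls to enter. The leading dsRNase region, on the plus strand of chromosome 18 from 5183132 to 5187772, held 33 sites. DsRNase replicates 1 and 2 had calls in 31 and 24 of them and both ssRNase replicates in 0. After scaling by set size this was at least 1.64-fold more for dsRNase, against a floor of 3 calls per ssRNase set. A region on the minus strand of chromosome 14 (16201784 to 16207071) had 19 and 22 dsRNase calls and no ssRNase call, at least 1.26-fold more. A region on the minus strand of chromosome 19 (1527117 to 1531570) had 23 and 16 against none, at least 1.19-fold more. An inverted copy of its site pattern at 1515166 to 1518227 on the plus strand had 19 and 11 against none, below the floor, so it has no fold. The pair may share reads.

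The other 4 leading dsRNase regions lay on chromosome 5 (20293825 to 20298232, plus strand; 16 and 17 dsRNase calls), chromosome 2 (15460119 to 15462289, minus strand; 15 and 16), chromosome 10 (15136591 to 15139919, minus strand; 18 and 13) and chromosome 2 (6533746 to 6535591, minus strand; 14 and 15). None had an ssRNase call. Their scaled calls lay below the floor, so no fold can be given.

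Regions with relatively more ssRNase calls had calls of both enzymes and were densely covered. Sites covered a median of 67.0% of their span, against 31.0% in the dsRNase-richer regions and 43.3% in all tested regions. Their mean site width had a median of 93.4 nt, against 46.5 and 59.1 nt. A shared site counts once for each RNase, which after scaling weighs towards ssRNase, and shared sites were the wide ones. Width and coverage are therefore not independent of how these regions were picked. The 150 regions had a median log2 difference (dsRNase minus ssRNase) of -2.00, from -3.22 to -1.10. The median over all tested regions was -0.13. Over the tested regions, the scaled values of all ssRNase sets lay above those of all dsRNase sets in 39.2%, and the reverse held in 30.6%.

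Several of the leading ssRNase regions came as pairs with the same spacing of sites, here called copies. On chromosome 17 a region from 5139793 to 5140776 on the plus strand had 3 and 4 dsRNase calls and 7 and 7 ssRNase calls. The log2 difference of the scaled values was -3.22 ± 0.53 (SE; adjusted p = 0.0182, limma). Its inverted copy at 5144739 to 5145722 on the minus strand had 3 and 4 against 6 and 7. On chromosome 22, regions from 13408701 to 13409638 and from 13584918 to 13585855, both on the plus strand, had identical numbers, 3 and 3 against 6 and 6 (log2 difference -3.16 ± 0.41, SE; adjusted p = 0.00987, limma). All of these had more ssRNase than dsRNase sites even before scaling.

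Another pair lay on chromosome 20. Its region on the minus strand (9478964 to 9480777) had 4 and 4 dsRNase and 7 and 7 ssRNase calls, and that on the plus strand (9473882 to 9475695) 4 and 5 against 7 and 7. Chromosome 22 held one more leading region, from 13676900 to 13677836 on the minus strand, with 4 and 3 against 5 and 5. By the spacing of their sites, 34 of 150 ssRNase-richer regions (22.7%) had a copy, against 16.7% of the dsRNase-richer and 15.6% of all tested regions. Copies may share reads and are then not independent regions, and the part of this in the counts was not tested.

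None of the 5 regions with the most calls passed the test. The largest, on the plus strand of chromosome 21 (2831255 to 2839985), had 72 and 68 dsRNase and 13 and 9 ssRNase calls (log2 difference 0.22 ± 0.58, SE; adjusted p = 0.803, limma). The region on chromosome 10 (5028443 to 5034163, plus strand) had 36 and 35 against 13 and 15 (log2 difference -1.12 ± 0.50, SE; adjusted p = 0.173, limma). The other 3, on chromosomes 8, 27 and 14, had adjusted p-values from 0.735 to 0.958 (limma). With no minimum of calls the chromosome 10 region passed the test, with adjusted p = 0.0165.

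**Figure D3:**
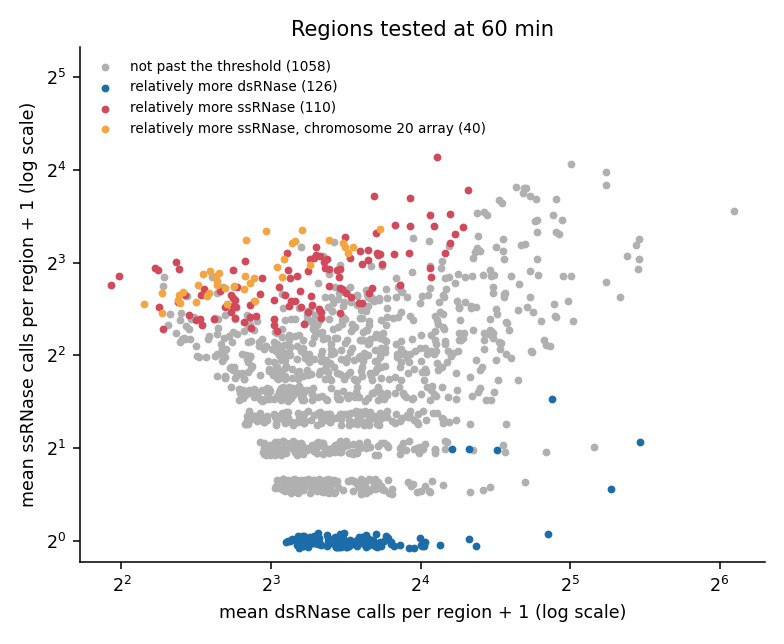
Mean dsRNase calls (x axis) and mean ssRNase calls (y axis) per region plus 1, both on log2-spaced axes, for the 1334 regions tested, with slight random displacement so that points do not cover each other. Regions with relatively more dsRNase calls (blue, 126) lie almost all on the line of 0 ssRNase calls; the 150 with relatively more ssRNase calls, red and orange, form the upper left edge, 40 of them in the repeat array of chromosome 20.

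The same regions were followed in the call sets of 0 and 30 min. The 110 ssRNase-richer regions outside the array held 5.72 and 6.74% of the ssRNase sites at 0 min and 7.56 and 5.38% at 30 min. Of the dsRNase sites they held 2.20 and 1.95% at 0 min and 2.19 and 3.26% at 30 min. Every ssRNase set lay above every dsRNase set. Within 0 min and within 30 min, the 1058 tested regions that did not pass showed this order too. At 0 min they held 28.3 and 29.1% of the ssRNase sites and 23.6 and 21.5% of the dsRNase sites. The order alone therefore does not set the 110 regions apart. The 126 dsRNase-richer regions held 2.64 and 2.77% of the dsRNase sites at 0 min and 3.22 and 3.42% at 30 min, and 1.39 and 0.928% of the ssRNase sites at 0 min and 1.19 and 2.05% at 30 min. The order was thus the same at each time. Calls of ssRNase, which 120 of the 126 regions lacked at 60 min, were present in these regions as a group at the other times. The regions were in effect chosen by that lack at 60 min, so no change with time can be read from these calls.

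One stretch rich in ssRNase-alone sites, singled out after its values were seen, had sites that recurred at regular intervals. It is called a repeat array here from this spacing alone, since its sequence was not analysed. It lies at one end of the listed part of chromosome 20 on the minus strand, from 2413 to 249547, and held 481 sites in 71 regions. A short block of sites, with a median span of 723 nt, recurred 22 times at a median spacing of 11556 nt, with spacings from 11013 to 13840 nt. Of the dsRNase sites, the array held 0.810 and 0.905% in replicates 1 and 2, and of the ssRNase sites 5.36 and 4.65%. Sites of ssRNase alone numbered 141, which was 29.3% of the array's sites and 8.19% of all ssRNase-alone sites. A further 219 had calls of both RNases and 121 of dsRNase alone. Of 43 array regions tested, 40 were among the 150 with relatively more ssRNase calls. One of them (239766 to 242325) was among the 8 leading ssRNase regions, with 8 and 6 dsRNase and 10 and 8 ssRNase calls.

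The repeat units resembled each other in which enzyme found which stretch. A long region, counted 19 times with a median span of 2566 nt, held sites of all 3 classes. Upstream of it, 19 of the 22 units had a narrow band of ssRNase-alone sites, 29 in all, with a median extent of 85 nt per unit. These sites lay 6123 to 6865 nt upstream of the block. Counting every site from 6000 to 7000 nt upstream, 21 units had 36 sites. There ssRNase replicate 1 had a call in 20 units and replicate 2 in 20, whereas dsRNase had one in 5. The window is fixed while units differ in length, so these are not counts of the band alone. Outside the window, ssRNase-alone sites lay in other parts of the units too. Examples are 8853 and 9523 nt in unit 2, 7136 nt in unit 7, 7336 nt in unit 5 and 10821 nt in unit 6. At 0 min the array held 4.49 and 4.64% of the ssRNase sites against 0.646 and 0.600% of the dsRNase sites. At 30 min the shares were 4.08 and 2.38% against 0.534 and 0.903%. The ssRNase shares lay above the dsRNase shares at all 3 times. Units of like sequence can share reads, so the 22 units may not be independent observations.

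**Figure D4:**
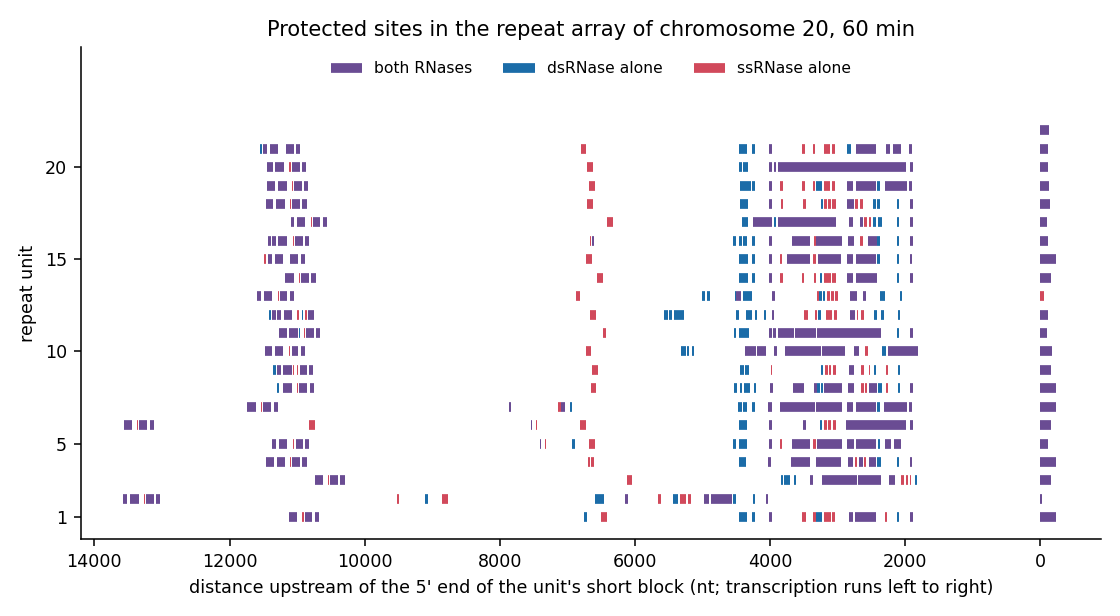
Protected sites of the chromosome 20 repeat array at 60 min, with a row per repeat unit; the x axis is the distance in nt upstream of the 5′ end of the unit's short block, and colours mark sites of dsRNase alone (blue), ssRNase alone (red) and both (violet). A red band recurs 6123 to 6865 nt upstream of the block, and a blue band lies at the upstream end of the long region.

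Chromosomes were compared by their share of each call set, over 27 chromosomes. Chromosome 20 differed most, with 4.79 and 4.92% of dsRNase and 9.26 and 8.28% of ssRNase sites (log2 difference -0.85 ± 0.07, SE; adjusted p = 3.06e-05, limma). Without the array it held 4.01 and 4.04% against 4.06 and 3.74%, and the log2 difference was 0.05 (adjusted p = 0.508, limma). Chromosome 22 held 2.91 and 2.94% of dsRNase and 3.87 and 4.22% of ssRNase sites (log2 difference -0.47 ± 0.06, SE; adjusted p = 0.000533, limma), and passed without the array too (adjusted p = 0.00424). Chromosome 25 had 2.10 and 2.03% against 1.54 and 1.51% (log2 difference 0.44 ± 0.06, SE; adjusted p = 0.000533, limma). Chromosome 11 had 3.69 and 3.45% against 2.75 and 2.55% (log2 difference 0.43 ± 0.06, SE; adjusted p = 0.000967, limma).

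In all, 10 chromosomes had a higher dsRNase share (37% of those tested) and 4 a higher ssRNase share (14.8%). Shares sum to the whole, so the array on chromosome 20 lowers every other chromosome's ssRNase share, and without it 3 and 3 chromosomes passed. With the replicate number as a block 2 and 0 passed, chromosomes 25 and 11, both with adjusted p = 0.0326, while chromosomes 20 and 22 had 0.0674 (limma). Leaving out dsRNase replicate 1 or 2 left 3 and 2 or 2 and 2 chromosomes, and leaving out ssRNase replicate 1 gave 7 and 6.

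**Figure D5:**
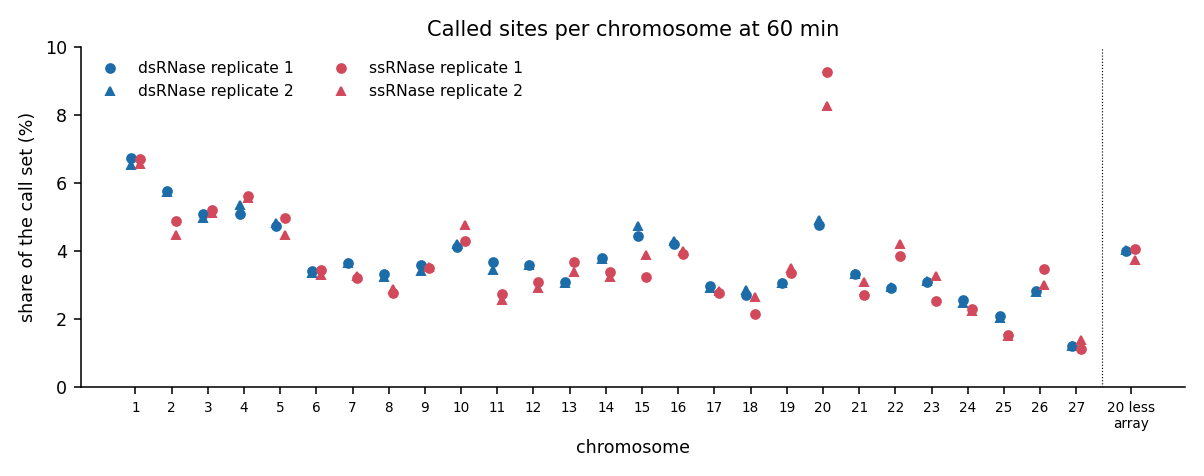
Share in % of each 60-min call set on chromosomes 1 to 27, dsRNase in blue and ssRNase in red, replicate 1 as circles and replicate 2 as triangles; right of the dotted line, chromosome 20 without its repeat array. Chromosome 20 stands out with 9.26 and 8.28% of the ssRNase sites, and without the array all 4 sets lie between 3.74 and 4.06%.

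Whether the contrast of the RNases at 60 min differed from that at the other times was tested per region over all 12 sets, among 1366 regions joined over the 3 lists. Against 0 min, 11 regions had relatively more dsRNase calls at 60 min (0.805%) and 19 relatively more ssRNase calls (1.39%). Against 30 min, 1 region (0.0732%) and 0 regions passed (0%, limma), with 151 and 9 regions at an unadjusted p under 0.05. With time and replicate number as a block, 0 regions passed in either comparison. Leaving out dsRNase replicate 1 or ssRNase replicate 2 of 0 min, or dsRNase replicate 1, dsRNase replicate 2 or ssRNase replicate 2 of 60 min, gave 0 or 1 in place of 11 and 0 to 2 in place of 19. Leaving out ssRNase replicate 1 gave 2 and 8 for that of 0 min and 8 and 8 for that of 60 min. For 60 against 30 min the count of 1 became 19 without ssRNase replicate 1 of 30 min, 11 and 6 without ssRNase replicates 1 and 2 of 60 min, and 0 without dsRNase replicate 1 or ssRNase replicate 2 of 30 min or dsRNase replicate 2 of 60 min. It was 2 or 3 without ssRNase replicate 1 or 2 of 0 min, dsRNase replicate 2 of 30 min or dsRNase replicate 1 of 60 min.

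On the plus strand of chromosome 15 (4898715 to 4903608), dsRNase calls were 11 and 16 at 0 min and 21 and 21 at 60 min. Calls of ssRNase went from 0 and 0 to 5 and 12 (adjusted p = 0.0256, limma). On the minus strand of chromosome 9 (17040297 to 17047070), ssRNase calls were 0 and 1 at 0 min and 15 and 17 at 60 min, with 18 and 21 dsRNase calls at 0 min and 31 and 30 at 60 min (adjusted p = 0.0256, limma). The dsRNase region on chromosome 5 at 20293825 had no call in any set at 0 min. Its contrast there rests on the prior alone, so no difference can be read, although it is counted among the 11 regions. The dsRNase region on chromosome 14 at 16201784 had 19 and 16 dsRNase and 3 and 6 ssRNase calls at 30 min, and 19 and 22 against none at 60 min (adjusted p = 0.0113, limma). At 0 min it had 1 call, in dsRNase replicate 2. The ssRNase sets held 8413 and 13873 sites at 30 min, against 6253 and 6388 at 60 min. The ssRNase calls at 30 min lie near the floor of 3 per set, and the 0 calls at 60 min enter the fit through the prior. No loss of ssRNase calls can be read from them. Regions on chromosome 12 at 14230846 and chromosome 16 at 5299779 came next for 60 against 30 min and did not pass (both adjusted p = 0.0699, limma).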

How the data were processed

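The deposited lists were made by the authors from PIP-seq reads with cutadapt 1.2.1 and TopHat2 2.0.10, per the submitters' processing notes. These name the build mm10, a mouse build, so which build the moss coordinates follow is unknown here. The names of the deposited lists hold CSAR and a false discovery rate of 5%, and nothing further about the caller was known. The score of each site is a deposited value with no stated unit, used only to select sites scoring at or above the median. Names of merged calls, in the same deposited lists, gave the call sets. Depth per sample is unknown.

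Counts of sites, widths and overlaps (at least 1 nt, same strand) were computed with pandas 2.3.3, and exact permutation tests with scipy 1.17.1, from 1-based coordinates. Regions join sites under 500 nt apart. Called sites per region and set, plus a prior of 0.5 calls in proportion to set size, were scaled per set and strand, and limma 3.58.1 under R 4.3.3 fitted the log2 values, using a mean trend and Poisson precision weights. The weights and the minimum mean of 4 calls replaced the planned fit (minimum 2, no weights). On simulated calls with 200 regions changed, the planned fit made 188 wrong calls, and up to 290 in 10 draws with none changed. The fit used made 0 in both. Simulated calls were independent Poisson draws, without further variation between replicates and without reads shared by copies. The 0 therefore need not hold for the real calls. Among 1220 simulated regions for dsRNase against ssRNase at 60 min it recovered 72.7 and 54.5% of 8-fold changes towards dsRNase and ssRNase, 30.3 and 3.0% of 4-fold and 2.9 and 0% of 2-fold ones. By the design text, replicate numbers pair the RNases as divisions of one sample. The correlation of their deviations from the group means was 0.07 over 1334 regions. Main fits carried no block.

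Named regions are the 8 with the largest log2 difference in each direction among those that passed without overlap between sets, the 5 with the most calls, the 3 with the most sites of each single RNase, and the 3 with the smallest adjusted p of each time comparison. The 2 widest sites of each kind are named too. Copies are regions with the same steps between site starts. Members and lists were chosen with earlier results of these data known. Alternatives varied scaling, prior, minimum, gap, weights, block, score, sets left out and the repeat array. The weights, call names in place of sites, and the array were added after the data were seen.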

Additional observations from a re-analysis of the deposited data

Results flagged for a closer look

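The contrast of dsRNase and ssRNase differed between times, by a test of the difference itself, in 30 regions for 60 against 0 min and in 1 region for 60 against 30 min (limma). With time and replicate number as a block no region passed either test. The fitted log2 differences that follow depend on the prior where sets had no call and are no bounds. They were -5.14 for the region on chromosome 15 at 4898715 and -4.56 for that on chromosome 9 at 17040297 (both 60 against 0 min), where the ssRNase calls at 0 min were 0 and 0, and 0 and 1. The value was 4.44 for the region on chromosome 5 at 20293825, which had no call at 0 min. No contrast could be compared for it, although it is counted among the 30 regions. For 60 against 30 min the value was 4.21 for the region on chromosome 14 at 16201784, where both ssRNase sets of 60 min had no call. No group had enough call sets to look for a single set far from the others.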

How the results depend on the processing

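Site shares moved with the rule. With both replicates required, 85.8% of sites were dsRNase-alone and 10.6% shared. Among sites scoring at or above the median the shares were 68.5% dsRNase-alone, 1.93% ssRNase-alone and 29.5% shared. Leaving out each set gave 74.2 to 86.6% dsRNase-alone, 2.08 to 6.75% ssRNase-alone and 10.7 to 19.0% shared. The median distance to the nearest site (dsRNase-alone minus ssRNase-alone, 2 nt) turned to -1 nt among such higher-scoring sites and ranged from -3 to 11 nt with a set left out, -3 and -2 nt without ssRNase replicate 1 or 2. The ratio of set sizes ranged from 5.18 to 5.86, and the widths and the sharing of regions kept their direction.

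Region counts, given as relatively more dsRNase and relatively more ssRNase (126 and 150), were 890 and 3 without scaling, 2111 and 743 with a minimum mean of 1 call, 757 and 332 with 2, 4493 and 709 with none, and 804 and 490 in the planned fit. They were 41 and 173 with a 200-nt gap, 194 and 147 with a 1000-nt gap, 74 and 234 among higher-scoring sites, 201 and 142 in the fit of all 12 sets, 137 and 282 without weights, 130 and 305 with the same prior in every set, and 128 and 234 with the replicate block. Leaving out a set gave 26 to 459 and 21 to 136. Without the repeat array 124 and 103 passed. Of the named regions' values, 21 of 21 stayed on their side of the threshold with the replicate block. Without scaling 5 fell short of it and 5 newly passed it, and without ssRNase replicate 1 the array region on chromosome 20 at 239766 fell short (-2.53, adjusted p = 0.0513, limma).

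For chromosomes, the replicate block gave 2 and 0, and leaving out the array 3 and 3, in place of 10 and 4. With a set left out the counts ranged from 2 to 10 and from 2 to 6. For 60 against 0 min, the counts of 11 and 19 became 17 (dsRNase) with the same prior in every set, 12 (ssRNase) with scaling per call set, 18 and 10 with a minimum of 1 call, 44 and 34 without weights, and 0 and 0 with the replicate block, with 118 and 78 regions there at an unadjusted p under 0.05 (limma). Sets left out gave 0 to 14 and 0 to 19. For 60 against 30 min, the counts of 1 and 0 became 3 (dsRNase) with a minimum of 1 call, 24 without weights, 7 with a 200-nt gap and 0 with the replicate block (131 and 25 regions at an unadjusted p under 0.05, limma), and 1 (ssRNase) with the same prior. Sets left out gave 0 to 19 and 0 to 0. The causes of these moves were not tested. Depth is unknown, and few calls per ssRNase set limit every region result.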
